A study of Mus musculus with 6 samples.

Results

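RGS proteins (regulators of G-protein signalling) switch off heterotrimeric G proteins, and 10 of their genes were followed here in whole pancreatic islets of mice with floxed Ssbp3 and a beta-cell Cre. The 10 genes were Rgs2, Rgs3, Rgs4, Rgs7, Rgs8, Rgs9, Rgs10, Rgs11, Rgs16 and Rgs17, found by their Ensembl IDs among the 56980 gene IDs of the count table. They were chosen with the knockout against control values of these same libraries known, so their changes are described, and no count of them is evidence about the family. All 10 passed the filter on low counts. Another 11 genes named Rgs were in the table and serve as a comparison.

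The knockout group was SSBP3F/F; MIP-CreER and the control group SSBP3F/F littermates, each with 3 libraries of total RNA from islets of 14-week-old mice. Both groups carry floxed Ssbp3 alleles, and SSBP3, a nuclear protein, works in complex with the LIM-domain-binding cofactor LDB1. The study asked about its place in glucose homeostasis, islet architecture and beta-cell identity. MIP-CreER is a ligand-inducible Cre recombinase driven by the mouse insulin promoter, so recombination is directed to beta cells while the RNA comes from all islet cells. MIP-CreER mice without floxed alleles are not analysed here, and an effect of the transgene and one of the deletion cannot be told apart. Whether a library is 1 animal or a pool is not stated, so p-values cover only library-to-library spread, which may be technical.

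An activated receptor loads the alpha subunit of a G protein with GTP, and an RGS protein speeds the hydrolysis of that GTP, which ends the signal. The family is divided by sequence into subfamilies. R4 proteins (among them RGS2, RGS3, RGS4, RGS8 and RGS16) act on the Gi and Gq classes, R7 proteins (RGS6, RGS7, RGS9 and RGS11) act on Gi/o and need the beta subunit Gβ5, RZ proteins (RGS17, RGS19 and RGS20) act on Gz and Gi/o, and RGS10 belongs to the R12 subfamily. In beta cells Gi/o receptors restrain insulin release and Gq receptors, such as the muscarinic M3 receptor, promote it.

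Library totals ran from 14907641 to 93841878 counts in knockout and from 17587055 to 225428920 counts in control libraries, with 1 shallow library in each group (knockout 1 and control 1). A count of 3 corresponded to between 0.0135 and 0.194 CPM (counts scaled to library size, scaled by edgeR's TMM factors). Ssbp3 itself measured 52.3, 58.1 and 57.1 CPM in knockout and 65.8, 81.3 and 74.2 CPM in control libraries. Every knockout library was lower, yet at a log2 fold change of -0.40 the gene did not pass (edgeR adjusted p = 0.0581), and the labels do not say which exons are floxed. The islet hormone gene Ins2 was between 87076 and 101320 CPM in knockout and between 115620 and 157820 CPM in control libraries, and Gcg was between 17457 and 21458 CPM in knockout and between 19661 and 30459 CPM in control libraries.

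Among the 10 genes, Rgs11 and Rgs17 were lower and Rgs16 was higher in knockout islets, and the other 7 were not called. Rgs11 was 7.62-fold lower, Rgs17 1.84-fold lower and Rgs16 2.12-fold higher. A gene is called here when its p in edgeR's quasi-likelihood test, after Benjamini-Hochberg adjustment across 18558 tested genes, is under 0.05. Of all genes tested 7.07% were called, 3.72% higher and 3.35% lower, beside 3 of the 10 RGS genes, 1 higher and 2 lower. Knockout and control libraries did not overlap for these same 3 of the 10, against 28.0% of all genes tested (14.0% with every knockout above and 14.1% with every knockout below). Since the 10 were chosen on this contrast, nothing is read from these shares. Upper-quartile scaling gave 42.5% of called genes over the whole table as higher, against 52.7% with TMM.

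**Figure D1:**
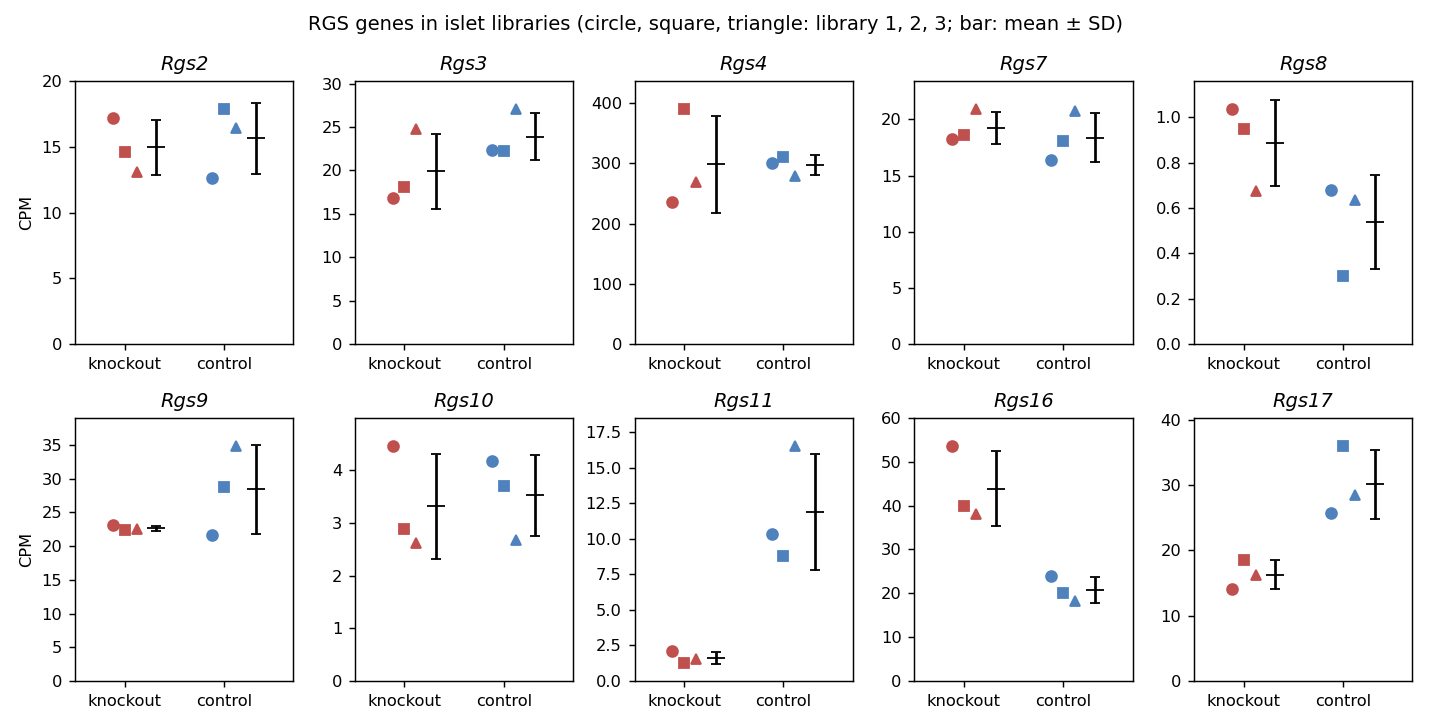
CPM of each of the 10 RGS genes in the 3 knockout and 3 control libraries (circle, square and triangle for libraries 1, 2 and 3), each panel starting at 0, with the mean ± SD of a group as a black bar. Rgs11 and Rgs17 lie lower and Rgs16 higher in every knockout library, with no overlap between the groups, and the other 7 panels overlap.

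Rgs11 (ENSMUSG00000024186) is an R7 gene, best known from retinal ON-bipolar cells, where its protein helps to shut off Go. It measured 2.07, 1.26 and 1.55 CPM in knockout 1, 2 and 3, against 10.3, 8.76 and 16.5 CPM in control 1, 2 and 3. Even the highest knockout library was far under the lowest control library, and control 3 was the highest of all. The values rest on 32, 101 and 163 counts in the knockout and on 183, 704 and 3666 counts in the control libraries. The mean was 1.63 ± 0.410 CPM in knockout and 11.9 ± 4.11 CPM in control islets (SD, n = 3 each), a log2 fold change of -2.93 (SE 0.296, 95% interval -3.57 to -2.29, edgeR adjusted p = 0.000152). Rgs11 was called lower under all 15 alternatives run, with log2 fold changes from -3.17 to -2.58 and adjusted p from 6.28e-24 to 0.0232. In bulk RNA fewer cells that express a gene and less of its RNA per cell cannot be told apart.

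None of the other R7 genes was called (0 of 3 tested by edgeR, with 0 under 0.05 before adjustment and 0 calls in DESeq2 and limma-voom), and their difference from Rgs11 was not tested. Rgs7 (ENSMUSG00000026527), whose product acts with RGS11 in the retina, measured 18.2, 18.7 and 20.9 CPM in knockout and 16.4, 18.0 and 20.8 CPM in control libraries. The groups overlap closely, with a log2 fold change of 0.06 (95% interval -0.26 to 0.39, edgeR adjusted p = 0.853). Rgs9 (ENSMUSG00000020599), whose short form ends the light response of photoreceptors, measured 23.1, 22.4 and 22.5 CPM in knockout and 21.7, 28.9 and 34.9 CPM in control libraries. The knockout libraries are nearly alike while the control libraries spread, and control 1 is the lowest of the 6. Its log2 fold change was -0.34 (95% interval -0.70 to 0.02, edgeR adjusted p = 0.261). It was negative under all 15 alternatives (-0.50 to -0.16, adjusted p 0.0997 to 0.671), and lowest in adjusted p without control 1, at -0.49. Rgs6 was near its floor, with 2, 0 and 24 counts in knockout and 0, 14 and 12 counts in control libraries.

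Per kilobase of exon, which allows levels of different genes to be set side by side, Rgs11 made up 6.88%, 4.34% and 4.97% of the summed R7 level in knockout 1, 2 and 3, against 28.7%, 21.7% and 30.6% in control 1, 2 and 3. Rgs9 and Rgs7 made up nearly all of the rest in both groups. The summed R7 level was 7.15 ± 0.241 CPM per kb in knockout and 10.3 ± 2.23 CPM per kb in control islets (SD, n = 3 each), without overlap. That sum includes Rgs11, which was chosen with this contrast known, while Rgs7 and Rgs9 each overlapped between the groups. It is therefore not read as a fall of the whole subfamily, and a sum without Rgs11 was not tested. Gnb5 encodes the Gβ5 subunit that R7 proteins require to be stable. It measured 21.7, 18.3 and 20.3 CPM in knockout and 15.5, 20.3 and 21.0 CPM in control libraries, which overlap (log2 fold change 0.08, edgeR adjusted p = 0.834), and it was chosen with its value known.

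Rgs16 (ENSMUSG00000026475) is an R4 gene whose protein acts on Gi and Gq. In mice its promoter is active in the developing pancreas and again in islets when beta cells expand, and in mouse liver the gene responds to glucose through ChREBP. The 250 bases before its RefSeq transcription start are shown with those of Rgs17, the other called gene with an entry in the promoter table, since the 2 genes moved in opposite directions. Both were read 5′ to 3′ on the strand of the gene from RefSeq on build GRCm38.p6, which is not the build of the counts. Capitals mark CCAAT and GGGCGG, each in either orientation.
Rgs16 (chr1:153740103-153740352, + strand): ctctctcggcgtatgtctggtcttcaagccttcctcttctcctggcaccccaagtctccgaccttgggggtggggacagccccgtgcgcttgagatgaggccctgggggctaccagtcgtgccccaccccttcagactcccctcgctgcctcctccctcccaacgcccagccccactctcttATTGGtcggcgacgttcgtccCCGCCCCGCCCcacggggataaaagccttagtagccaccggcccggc
Rgs17 (chr10:5922401-5922650, - strand): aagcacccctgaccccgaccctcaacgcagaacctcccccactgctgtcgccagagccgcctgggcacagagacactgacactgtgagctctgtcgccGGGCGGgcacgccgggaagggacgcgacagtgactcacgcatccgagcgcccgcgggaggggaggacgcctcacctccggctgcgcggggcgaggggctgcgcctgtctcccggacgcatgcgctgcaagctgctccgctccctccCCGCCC

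The Rgs16 window held 1 CCAAT and 2 GGGCGG, read there as CCGCCC and sharing a base, and the Rgs17 window held 0 CCAAT and 2 GGGCGG. Over both strands CCAAT was present in 33.8% and GGGCGG in 32.7% of all 32851 windows of 250 bases. Neither window held TAATTA, a core bound by LIM-homeodomain factors (4.84% of windows), TTCNNNGAA, the core bound by STAT factors (7.02%), CACGTG, the E-box (6.02%), TGACGTCA, the cyclic AMP response element (1.55%), or TATAAA (12.4%). A missing match says only that these letters are not in these windows. The windows were 66.4% and 72.4% G or C for Rgs16 and Rgs17, against a median of 52.4%. They held 17 and 27 CG dinucleotides, against a median of 6. Of the 10 genes 9 had an entry in the table, and Rgs11 had none.

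Rgs16 measured 53.6, 39.8 and 38.0 CPM in knockout 1, 2 and 3, against 23.9, 20.0 and 18.2 CPM in control 1, 2 and 3. Each knockout library was above every control library, and the shallow library was the highest of its group on both sides. The mean was 43.8 ± 8.55 CPM in knockout and 20.7 ± 2.92 CPM in control islets (SD, n = 3 each), a log2 fold change of 1.08 (SE 0.162, 95% interval 0.73 to 1.43, edgeR adjusted p = 0.00205). Rgs16 was called higher under all 15 alternatives, with log2 fold changes from 0.92 to 1.19 and adjusted p from 2.91e-10 to 0.0405.

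The other R4 genes among the 10 overlapped between the groups. Rgs4 (ENSMUSG00000038530), whose protein limits insulin release driven by the M3 receptor in mouse beta cells, measured 236, 389.6 and 269.6 CPM in knockout and 300.9, 311 and 278 CPM in control libraries. The knockout libraries lie on both sides of the control libraries, and knockout 2 is the highest of the 6. Its log2 fold change was 0.01 with a 95% interval from -0.35 to 0.37 (edgeR adjusted p = 0.982). Rgs2 (ENSMUSG00000026360), whose protein acts mainly on Gq, measured 17.2, 14.6 and 13.1 CPM in knockout and 12.6, 17.9 and 16.5 CPM in control libraries. The order of the libraries mixes both groups, with a log2 fold change of -0.08 (95% interval -0.46 to 0.30, edgeR adjusted p = 0.843). Rgs3 (ENSMUSG00000059810), which acts on Gi and Gq, measured 16.8, 18.1 and 24.8 CPM in knockout and 22.4, 22.2 and 27.1 CPM in control libraries. Knockout 3 reaches into the control range (log2 fold change -0.26, 95% interval -0.63 to 0.11, edgeR adjusted p = 0.418).

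Rgs8 (ENSMUSG00000042671) lies directly beside Rgs16 in the mouse RefSeq annotation, and its protein acts on Gi/o. In mice its expression has been described together with that of Rgs16 in the embryonic pancreas. It measured 1.04, 0.949 and 0.673 CPM in knockout and 0.677, 0.299 and 0.636 CPM in control libraries, from 16, 76 and 71 counts in knockout and 12, 24 and 141 counts in control libraries. Knockout 1 and 2 are above all controls while knockout 3 is just under control 1. The log2 fold change of 0.73 has a 95% interval from -0.50 to 1.96 (edgeR adjusted p = 0.509), so neither no change nor a change as large as that of Rgs16 was outside what this depth allows.

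Rgs17 (ENSMUSG00000019775) is an RZ gene, whose protein acts on Gz and Gi/o. It measured 14.1, 18.6 and 16.2 CPM in knockout 1, 2 and 3, against 25.7, 36.0 and 28.5 CPM in control 1, 2 and 3. All 3 knockout libraries were below the lowest control library. The mean was 16.3 ± 2.23 CPM in knockout and 30.1 ± 5.29 CPM in control islets (SD, n = 3 each), a log2 fold change of -0.88 (SE 0.164, 95% interval -1.24 to -0.53, edgeR adjusted p = 0.00736). The call held under 14 of 15 alternatives. It was lost without knockout 1 and control 1 together, the shallowest library of each group, where the log2 fold change was -0.89 and the adjusted p was 0.0904 (1.34e-05 to 0.0904 over the 15).

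The RZ relatives Rgs19 and Rgs20 are outside the 10 genes. Rgs19 measured 8.15, 8.07 and 5.54 CPM in knockout and 7.68, 8.14 and 6.96 CPM in control libraries (log2 fold change -0.07, edgeR adjusted p = 0.884), and Rgs20 had one of 0.08 (edgeR adjusted p = 0.941). Per kilobase, Rgs17 made up 29.7%, 36.1% and 41.0% of the summed RZ level in knockout libraries and 43.8%, 52.9% and 50.3% in control libraries. Rgs17 held the largest share in control 2 and control 3 alone, and Rgs19 held it in control 1 and in all 3 knockout libraries. Rgs17 was chosen with this contrast known, so its share restates its lower level and is not read as a separate result. Rgs10 (ENSMUSG00000030844), an R12 gene known from microglia, measured 4.46, 2.88 and 2.62 CPM in knockout and 4.18, 3.71 and 2.68 CPM in control libraries. The groups overlap (log2 fold change -0.10, 95% interval -0.77 to 0.57, edgeR adjusted p = 0.895).

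**Figure D2:**
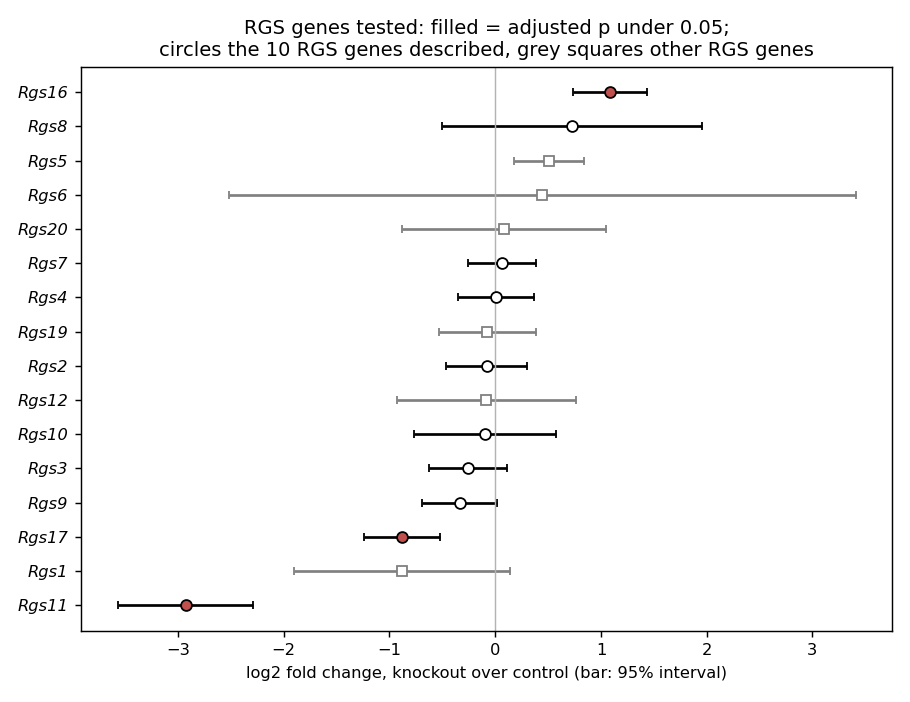
Log2 fold change, knockout over control, of the 16 RGS genes tested, with the 95% interval from edgeR as bars, filled where the adjusted p is under 0.05 (circles for the 10 genes described, grey squares for the other 6). Rgs16 (1.08), Rgs17 (-0.88) and Rgs11 (-2.93) are filled, and the widest interval belongs to Rgs6, which had at most 24 counts in a library.

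The 10 genes differed far more in level than between the groups. Per kilobase Rgs4 was the highest, with 96.4 ± 26.0 CPM per kb in knockout and 95.8 ± 5.37 CPM per kb in control islets (SD, n = 3 each), and Rgs16 was next in both groups, with 18.7 ± 3.66 and 8.86 ± 1.25 CPM per kb in knockout and control islets. Both were separated from the next gene in every library of either group. In control islets Rgs9, Rgs2, Rgs17, Rgs7, Rgs11, Rgs3 and Rgs10 followed, between 4.46 and 2.06 CPM per kb, and each overlapped its neighbour in that order among all RGS genes. In knockout islets Rgs2, Rgs9, Rgs7, Rgs17, Rgs10 and Rgs3 lay between 4.13 and 1.84 CPM per kb. In knockout islets Rgs11 lay under these 6, at 0.386 ± 0.0976 CPM per kb in knockout and 2.82 ± 0.977 CPM per kb in control islets. Rgs8 was the lowest of the 10, at 0.0919 ± 0.0196 CPM per kb in knockout and 0.0557 ± 0.0215 CPM per kb in control islets. The summed R4 level was 127 ± 24.1 CPM per kb in knockout and 115 ± 5.18 CPM per kb in control islets, most of it from Rgs4, and overlapped between the groups.

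**Figure D3:**
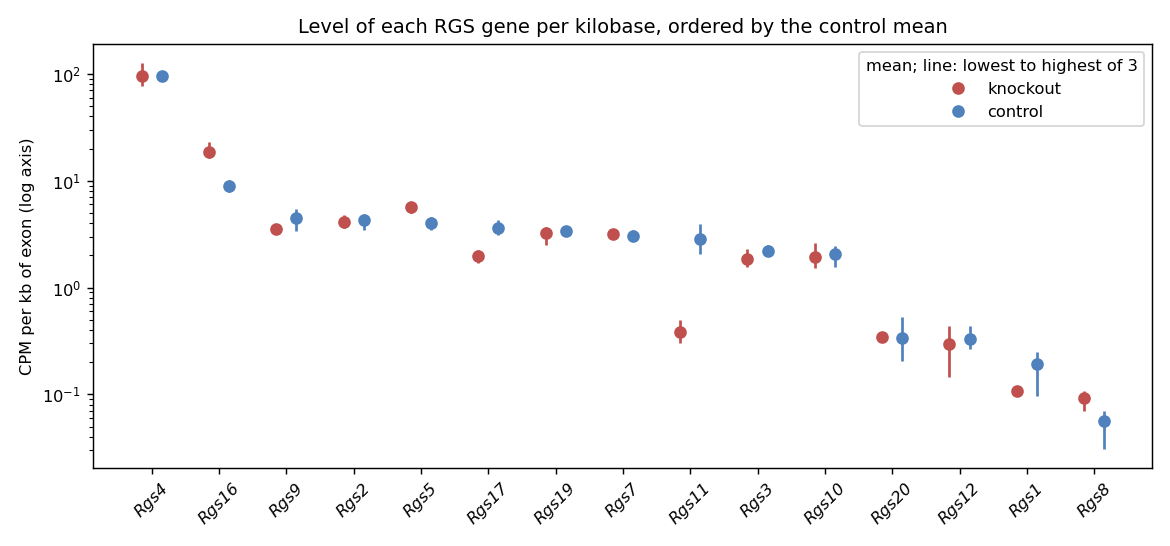
CPM per kb of exon, on a log axis, of 15 RGS genes in knockout (red) and control (blue) islets, ordered by the control mean, with the lowest and highest of 3 libraries as a line. Rgs6 is left out because libraries at 0 cannot be drawn on a log axis. Rgs4 and Rgs16 stand above the rest in both groups, and Rgs11 shows the widest gap between them.

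None of the other RGS genes was called by edgeR. Of the 11, 6 were tested, 1 was under 0.05 before adjustment, and DESeq2 and limma-voom each called 1 (2015 and 1725 over all genes). That gene was Rgs5, an R4 gene that marks pericytes, with 22.9, 26.6 and 27.8 CPM in knockout and 17.6, 15.8 and 21.0 CPM in control libraries. Every knockout library was higher, its log2 fold change being 0.51 (SE 0.153, edgeR adjusted p = 0.0659). It passed under 5 of 15 alternatives, among them the one without control 3 (adjusted p = 0.0409). Rgs1, known from lymphocytes, had -0.88 (edgeR adjusted p = 0.309) and Rgs12 -0.08 (0.931) as log2 fold change. Rgs14, Rgs18 and Rgs22 had at most 26 counts in a library and Rgs13 and Rgs21 had 0 in all 6. The median log2 fold change was -0.09 over the 10 genes, 0.00 over the other 6 and 0.00 over all genes tested.

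**Figure D4:**
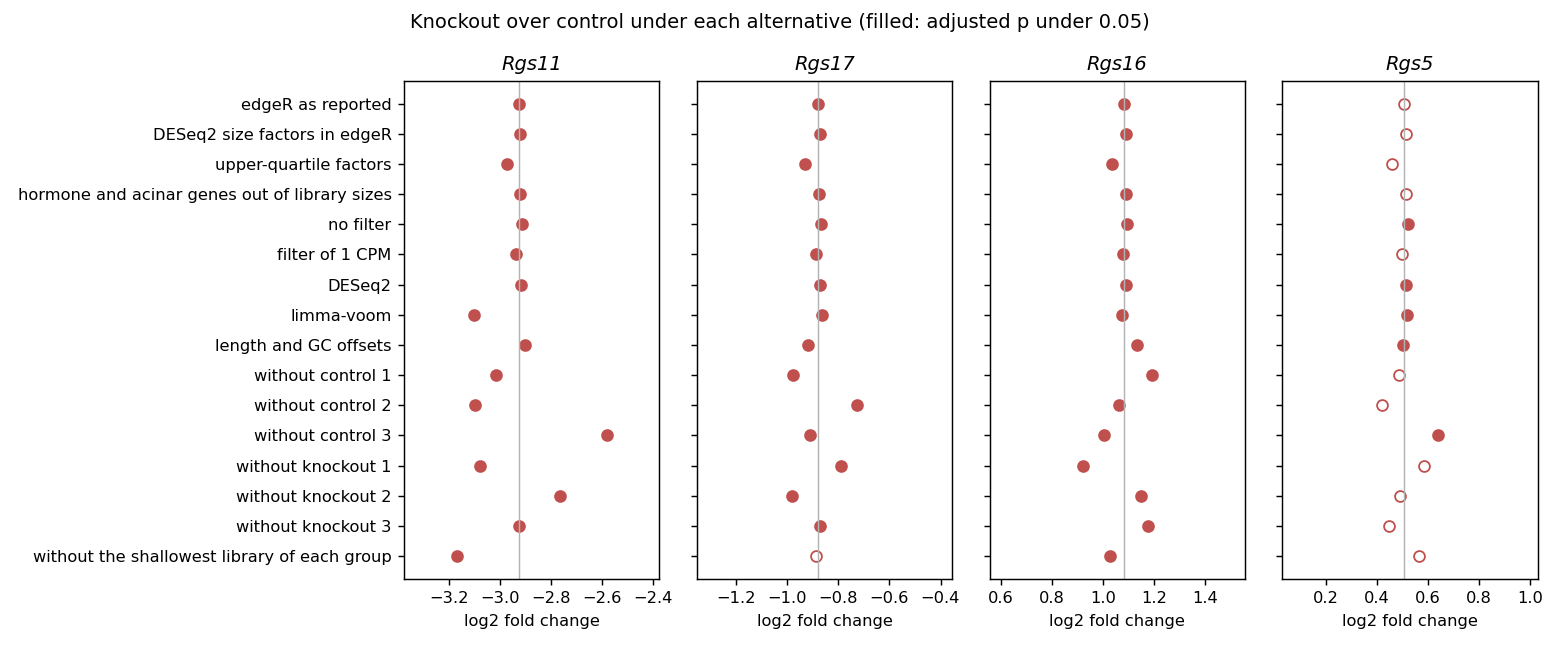
Log2 fold change, knockout over control, of Rgs11, Rgs17, Rgs16 and Rgs5 as reported and under 15 alternatives, filled where the adjusted p is under 0.05, with a grey line at the reported value. All panels span 1 log2 unit. Rgs11 and Rgs16 are filled throughout, Rgs17 is open without the shallowest library of each group, and Rgs5 is filled in 5 of the 15.

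The genes whose profile over the 6 libraries was most like that of Rgs16 and Rgs11 were found by the root-mean-square difference of log2 CPM, each gene centred on its own mean, among 12676 genes. For Rgs16 the nearest included Tcp11 at 0.08 log2 units and Cetn4 at 0.10. Cetn4, a centrin gene, measured 20.6, 13.7 and 12.8 CPM in knockout and 9.71, 7.82 and 7.10 CPM in control libraries. For Rgs11 they were Mirg at 0.42, Neat1 at 0.45 and Dapl1 at 0.56 log2 units. Mirg, a noncoding RNA gene of the imprinted Dlk1-Dio3 region, measured 2.52, 1.37 and 1.17 CPM in knockout and 9.03, 10.9 and 9.09 CPM in control libraries. Profiles in 2 groups of 3 are set mainly by the group difference, and the distances are given as a description.

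The tested genes beside Rgs11 and Rgs17 did not pass the test. Gm3213, beside Rgs17, had 0 counts in every library and was not tested. The genes named here were chosen after their values were seen. Arhgdig, on the opposite strand, shares 138 bases with the exons of Rgs11, 3.28% of their length. It measured 18.2, 20.3 and 15.9 CPM in knockout and 17.4, 24.8 and 18.5 CPM in control libraries, which overlap (log2 fold change -0.16, edgeR adjusted p = 0.643). The strand setting of the counting is not given, so reads in the shared bases cannot be told apart. Fam234a, on the other side of Rgs11, had 0.36 (edgeR adjusted p = 0.174) and Mtrf1l, beside Rgs17, -0.18 (0.721) as log2 fold change.

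The substrates of RGS proteins, the G-protein alpha subunits, had 2 of 13 tested genes higher and 0 lower by edgeR, against 3.72% and 3.35% of all genes. Their median log2 fold change was 0.18, against 0.00 over all genes. Gnai2, a Gi subunit gene, measured 753, 663 and 680.3 CPM in knockout and 415, 404 and 576 CPM in control libraries (log2 fold change 0.59, edgeR adjusted p = 0.0380). Control 3 is the nearest to the knockout libraries. Gna13, of the G12/13 class, measured 47.6, 48.6 and 50.1 CPM in knockout and 32.6, 35.3 and 39.9 CPM in control libraries (0.44, 0.0465). The call of Gnai2 was lost without control 1, control 2, knockout 1 or knockout 2 (edgeR adjusted p 0.157, 0.164, 0.140 and 0.0664). Without the shallowest library of each group neither Gnai2 (0.327) nor Gna13 (0.228) was called. The call of Gna13 also ended when either of control 1 (0.155) and control 2 (0.181) or any knockout library (0.100, 0.112 and 0.0834 for knockout 1, 2 and 3) was left out. It ended as well with upper-quartile factors (0.0596) and under offsets for length and GC (0.170).

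None of the 11 tested beta and gamma subunit genes was called by edgeR. Before adjustment 2 were under 0.05, beside 4014 of 18558 over the table. The calls numbered 2 in DESeq2 and 0 in limma-voom, against 2015 and 1725 over all genes. Gng12, the one with the highest mean CPM, measured 206, 201 and 286 CPM in knockout and 312, 295 and 389.7 CPM in control libraries. Every knockout library was lower, its log2 fold change being -0.53 (edgeR adjusted p = 0.0687). Of the 5 anchors and partners of R7 proteins, which include Gnb5, 0 were called by edgeR, with 1 under 0.05 before adjustment and 1 and 0 calls in DESeq2 and limma-voom. Gpr158, a membrane anchor of RGS7 and the one with the highest mean CPM, measured 29.8, 31.2 and 55.3 CPM in knockout and 44.5, 30.3 and 43.0 CPM in control libraries, its log2 fold change being -0.01 (edgeR adjusted p = 0.988). Gpr179, a related anchor of R7 proteins in ON-bipolar cells, is named after its value was seen. It measured 0.129, 0.524 and 0.721 CPM in knockout and 2.03, 2.36 and 0.965 CPM in control libraries, from as few as 2 counts in knockout 1. Every knockout library was lower, and the log2 fold change was -1.82 (SE 0.569, edgeR adjusted p = 0.0756). It passed without a filter (0.0183), in DESeq2 (0.0208), under offsets for length and GC (0.0352) and without control 3 (0.0480), within a range of 0.0183 to 0.305 over its 14 alternatives.

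Of 13 other modulators tested, which include receptor kinases and arrestins, 1 was lower and 0 higher by edgeR, where 7.07% of all genes were called in either direction, and the median log2 fold change was -0.07. Gpsm1, whose protein holds Gi subunits in their GDP form, measured 55.0, 47.3 and 45.8 CPM in knockout and 60.1, 67.7 and 86.9 CPM in control libraries (log2 fold change -0.54, edgeR adjusted p = 0.0406). Every knockout library was below every control library. It did not pass when control 2 (edgeR adjusted p = 0.0975), control 3 (0.131) or any knockout library was left out (0.0742, 0.112 and 0.0809 for knockout 1, 2 and 3). Nor did it pass without the shallowest library of each group (0.107).

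Among 10 effectors downstream of Gq, 1 was higher and 0 lower by edgeR, against 3.72% and 3.35% of all genes, and the median log2 fold change was 0.51. Before adjustment 6 were under 0.05, beside 4014 of 18558 over the table. DESeq2 called 4 and limma-voom 2, against 2015 and 1725 over all genes. Libraries of the groups did not overlap for 6, against 28.0% of all genes tested. Every knockout was above for 5 and below for 1, against 14.0% and 14.1% of all genes tested. Non-overlap also held for 6 of 13 alpha subunits, 4 of 11 beta and gamma subunits and 5 of 14 receptors. It held for 2 of 13 other modulators and 2 of 5 anchors and partners of R7 proteins. The lists were chosen with earlier results of these data known, so nothing is read from these shares and medians. Itpr3, an inositol trisphosphate receptor that releases calcium from the endoplasmic reticulum, measured 59.6, 63.7 and 69.9 CPM in knockout and 39.0, 44.2 and 50.3 CPM in control libraries (log2 fold change 0.53, edgeR adjusted p = 0.0246). The groups are separate. It did not pass when control 1 or control 2 (edgeR adjusted p = 0.102 for each) or any knockout library was left out (0.0546, 0.0570 and 0.0530 for knockout 1, 2 and 3). Nor did it pass without the shallowest library of each group (0.166) or under offsets for length and GC (log2 fold change 0.35, 0.0812).

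Among 14 tested receptors that couple to Gi/o or Gq, 1 was higher and 1 lower by edgeR, beside 3.72% and 3.35% of all genes, with a median log2 fold change of -0.14. Before adjustment 5 were under 0.05, beside 4014 of 18558 over the table. The calls numbered 4 in DESeq2 and 3 in limma-voom, against 2015 and 1725 over all genes. P2ry1, a Gq-coupled receptor for ADP, measured 3.10, 4.93 and 6.50 CPM in knockout and 14.7, 11.8 and 14.9 CPM in control libraries (log2 fold change -1.47, edgeR adjusted p = 0.00370). All knockout libraries were well under the controls, and the call was lost only without the shallowest library of each group (0.0803). Ptger3, a Gi-coupled prostaglandin receptor, measured 15.0, 11.4 and 8.35 CPM in knockout and 3.61, 5.87 and 1.84 CPM in control libraries (1.61, 0.0447). Its call was lost without control 1, knockout 1, knockout 2 or knockout 3 (edgeR adjusted p 0.146, 0.111, 0.0906 and 0.0676). It was also lost without the shallowest library of each group (0.2355), with upper-quartile factors (0.0592) and under offsets for length and GC (0.0960).

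**Figure D5:**
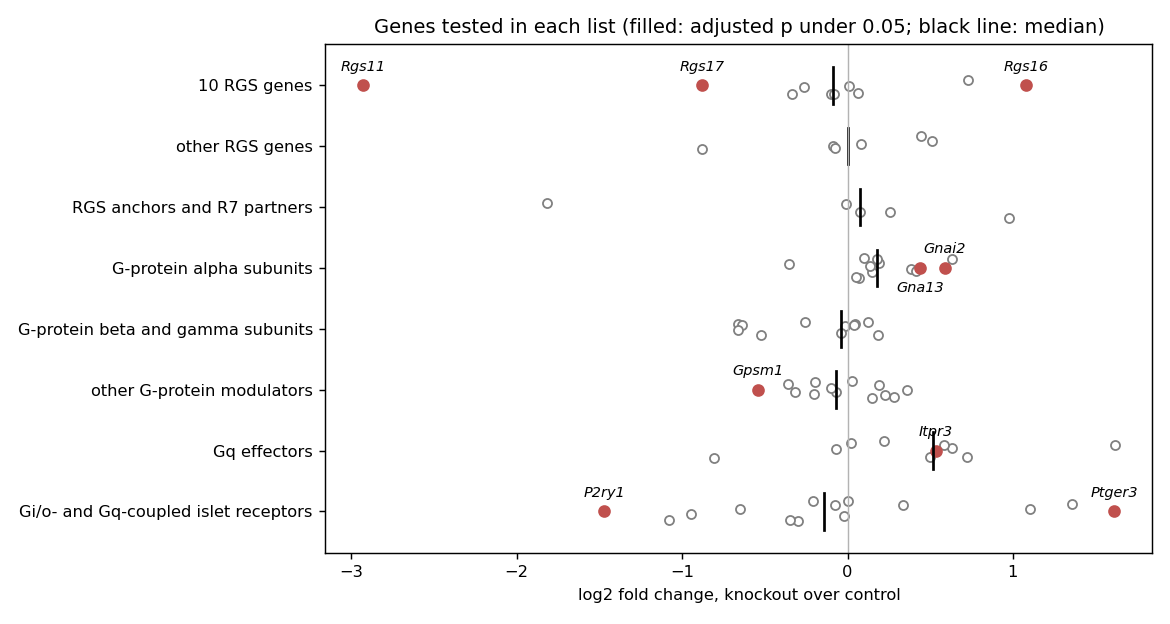
Log2 fold change, knockout over control, of the genes tested in each of 8 lists of G-protein signalling, with the median of a list as a black line and called genes filled and named. Rgs11 lies at -2.93, farther from 0 than any other gene drawn, and the median of the Gq effectors lies at 0.51. The lists were chosen with earlier results of these data known, so the medians are a description.

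Markers of the islet's cell types were read beside these values, with 3.35% of all genes called lower and 3.72% higher as the background of each count. Of 9 beta-cell markers 3 fell (Mafa, G6pc2 and Ucn3) and 0 rose by edgeR. The summed level of the 9 was between 141690 and 159380 CPM in knockout and between 188680 and 243780 CPM in control libraries. Most of that sum lay in Ins1, Ins2 and Iapp, which were not called (edgeR adjusted p = 0.109, 0.234 and 0.469). For each of these, every knockout library was nonetheless below every control library. Every knockout was below for 7 of the 9 markers and above for 0, against 14.1% and 14.0% of all genes tested. The log2 fold change was negative for 9 and positive for 0. Of 3 delta-cell markers 2 fell, with a sum between 2121 and 2582 CPM in knockout and between 3326 and 5290.1 CPM in control libraries. Of 8 endothelial markers 1 rose, with a sum between 263 and 329 CPM in knockout and between 226 and 261 CPM in control libraries. Of 8 Schwann and neuronal markers 1 fell (Tubb3), with a sum between 41.4 and 49.2 CPM in knockout and between 71.7 and 93.9 CPM in control libraries. Of 5 duct markers 1 rose (Cftr), with a sum between 944 and 1407 CPM in knockout and between 1702 and 2216 CPM in control libraries. Most of the difference in that sum lay in Spp1, at 635 ± 251 CPM in knockout and 1343 ± 167 CPM in control islets (SD, n = 3 each), which was not called (edgeR adjusted p = 0.0550). Krt19 and Krt7 overlapped between the groups.

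None of the alpha-cell, PP-cell, acinar, stromal or immune markers was called by edgeR (3, 1, 0, 1 and 1 of them had an unadjusted p under 0.05). Their summed levels overlapped between the groups for alpha, PP, acinar, stromal and immune cells alike. The stromal sum, which bears on Rgs5 and takes pericyte and other stromal markers together, was between 93.0 and 142 CPM in knockout and between 97.5 and 211 CPM in control libraries. Of its 11 markers 9 had a negative and 2 a positive log2 fold change (median -0.61), while that of Rgs5 was 0.51. How Rgs5 relates to these cells was not tested. The immune sum, which bears on Rgs1 and Rgs10, was between 91.2 and 184 CPM in knockout and between 97.2 and 113 CPM in control libraries, and the T-cell marker Cd3e was at or near 0 throughout. The part of cell composition in the levels of Rgs11, Rgs16 and Rgs17 was not tested.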

How the data were processed

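Counts per Ensembl gene ID were deposited as whole numbers without normalization by the authors, for 3 knockout and 3 control libraries of islet RNA. Per the submitters' processing notes, the build was GRCm39 (mm39) and the tools were STAR 2.7.3a, featureCounts, Trim Galore 0.6.7 and FastQC 0.11.9. Not given in the sources used here are the annotation release, the strand setting and how read pairs and multi-mapping reads were treated. Between 62.3% and 73.2% of a library's nonzero counts were even; whether mates were counted separately is not known. Column names give the group of a library but not its sample, so libraries are numbered after the columns. Libraries of the same group differed beyond sampling noise (chi-square per gene at least 36.7), so none was treated as a duplicate.

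The RGS genes, the lists and the tests were chosen with earlier results of these data known. Symbols were matched for 52073 of 56980 IDs. In R 4.3.3, edgeR 4.0.16 (filterByExpr, TMM, robust quasi-likelihood test) compared knockout with control over 18558 genes, and log2 fold changes are knockout over control. The test was first run on simulated counts with known changes. Levels per kilobase use the merged exon length of GENCODE M21 (GRCm38), by gene ID. Alternatives were DESeq2 1.42.0, limma-voom (limma 3.58.1), other scalings and filters, length and GC offsets, and libraries left out. The text names the 10 RGS genes, the other Rgs genes, every called gene of each pathway list or else its highest by mean CPM, and, of the 3 profiles nearest the largest rise and the largest fall, those reported here (1 is not). Other genes were chosen after their values were seen. Log2 CPM uses a prior count of 2. Intervals and floors (3 counts) cover counting or replicate error of these libraries only, since reads are not independent molecules.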

Additional observations from a re-analysis of the deposited data

How the results depend on the processing

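Fold changes and counts of called genes were recomputed under 15 alternatives, of which the filter of 1 CPM gave no value for Rgs8, Rgs1, Rgs6 and Gpr179. Levels per kilobase, subfamily sums and shares, marker sums and profile distances were not recomputed. The calls of Rgs11 and Rgs16 held under every one, and that of Rgs17 under all but the fit without the shallowest library of each group. None of the other 7 of the 10 genes was called under any that gave it a value. Over all genes, 2153 were called without a filter (1222 higher), 2015 with DESeq2 (1059 higher and 956 lower) and 124 without the shallowest library of each group (76 higher and 48 lower), against 1312. Leaving out 1 library gave 519 to 1309 called genes, 295 to 719 higher and 224 to 590 lower.

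The counts of called genes in the pathway lists were small and depended on the setting, and the cause was not tested. Over all genes the calls also moved: 1442 with upper-quartile factors, 2153 without a filter, 2015 with DESeq2, 1725 with limma-voom and 1311 with the offsets. They numbered 124 without the shallowest libraries and 519 to 1309 with a library left out. The list counts are not read apart from these. Among the other RGS genes 1 was called without a filter, with DESeq2, with limma-voom and with length and GC offsets, and 0 to 1 with a library left out. Among the R7 partners 1 was called without a filter, with DESeq2 and with the offsets, and 0 to 1 with a library left out. Of the alpha subunits 1 was called with upper-quartile factors and with the offsets, 0 without the shallowest libraries, and 0 to 3 with a library left out. Gnai2, Gna13 and Gnao1 were all called without a filter, with DESeq2 and with limma-voom. Of the beta and gamma subunits 2 were called with upper-quartile factors, without a filter and with DESeq2, 1 with the offsets, and 0 to 1 with a library left out. Of the other modulators 0 were called without the shallowest libraries and 0 to 1 with a library left out. Of the Gq effectors 6 were called without a filter, 4 with DESeq2, 2 with limma-voom, 0 with the offsets or without the shallowest libraries, and 0 to 2 with a library left out. Of the receptors 1 was called with upper-quartile factors and with the offsets, 4 without a filter and with DESeq2, 0 without the shallowest libraries, and 1 to 3 with a library left out. No paired analysis was possible because the columns carry no number that the labels tie to an animal. Depth limits Rgs8, Rgs1 and Rgs6, with as few as 12, 12 and 0 counts in a library, and the 5 RGS genes too low to be tested.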
